A study of Homo sapiens with 6 samples.

Results

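Cytosolic ribosomal proteins are the protein components of the ribosome that translates cytoplasmic mRNA, named RPS for the small and RPL for the large subunit. The members described here are the genes whose symbol has that form with a number, an optional letter or an L for a paralog, or is RPSA or one of the stalk protein symbols. A gene counted where at least 1 probe set of the array carried its symbol and no other, and it was represented by its probe set with the highest mean log2 intensity over the 6 arrays. This gave 59 genes of the 19775 with such a probe set. There were 20 proteins of the small subunit, 32 of the large subunit with the stalk proteins RPLP1 and RPLP2, and 7 paralogs, which are second gene copies of a ribosomal protein. Of 77 ribosomal protein genes known from textbooks, 52 were covered in this way, 15 occurred in probe sets that list several symbols, which are described together further on, and 10 were not analysed here.

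The small subunit reads the mRNA and the large subunit joins the amino acids, while the stalk proteins recruit the factors that drive each step. The mRNAs of ribosomal proteins are among the most abundant of a growing cell, and most begin with a C followed by a run of pyrimidines, the 5′ terminal oligopyrimidine or TOP motif, through which mTOR signalling and LARP1 set how strongly they are translated. Transcription of these genes is known to depend on general promoter factors and, in many cells, on MYC, while paralogs such as RPL22L1 and RPL39L have narrower expression than their parent genes. Ribosomal proteins that are not built into ribosomes, RPL5 and RPL11 among them, can bind MDM2 and stabilise p53.

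The cells were U937T:PLZF-RARa, derived from U937, a human monocytic leukaemia line, and engineered to express PLZF-RARa, the fusion protein of a rare acute promyelocytic leukaemia, when tetracycline is withdrawn. Induced cells had 0 µg/ml tetracycline for 48 h and uninduced cells had 0.1 µg/ml, with 3 arrays in each group. The medium of all 6 samples held puromycin at 0.5 µg/ml and G418 at 1 mg/ml, and both groups carry the transgene, so tetracycline itself and the fusion protein cannot be told apart as the difference between them. The labels do not say whether the line is 1 clone or whether the replicates were separate cultures, so the p-values measure the spread between these samples, which may be technical.

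RNA was measured on Affymetrix arrays as 1 GCRMA intensity per probe set, and levels below are log2 of that intensity. A level also depends on the probes, so it ranks signals and not transcript numbers between genes. Of 20552 tested probe sets, 62.5% passed an adjusted p of 0.05 between the groups, 34.6% higher and 27.9% lower in induced cells. The fusion joins parts of ZBTB16 (PLZF) and RARA, and which part each probe set reads was not analysed. RARA signal of probe set 211605_s_at was 7.58 ± 0.17 in induced and 1.87 ± 0.10 in uninduced cells (SD, n = 3 each; adjusted p = 1.90e-07), while 203749_s_at of the same gene and the ZBTB16 probe set were lower in induced cells (-1.17 and -1.96). Of 12 markers of the myeloid line, 11 had a probe set, and their summed intensity was 35241 to 35927 in induced and 55356 to 62886 in uninduced cells. Of those 11, MPO stayed below the filter (3.12 in induced and 2.69 in uninduced cells), and 3 rose and 7 fell. None of 5 T cell markers reached the filter on 3 arrays, and summed marker signal was 22.4 to 23.5 in induced and 20.6 to 21.9 in uninduced cells for T cells, 60.6 to 65.5 in induced and 56.5 to 58.3 in uninduced cells for B cells, and 18.6 to 21.3 in induced and 51.0 to 61.1 in uninduced cells for erythroid cells. For stromal or epithelial cells it was 917 to 1000.2 in induced and 1042 to 1106 in uninduced cells. The part of these marker shifts in the results below was not tested.

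The sequences below are from RefSeq on GRCh38.p14, on the strand of the gene, with 15 bases before and 15 bases from the start on; capitals mark the run of C and T that begins at the first transcribed base where that base is C. They are shown because they belong to the members whose values the results turn on, and RPL22 and RPL39 are parents of 2 paralogs. For a gene with several annotated starts the one with the longest run is given.
RPL22L1, chr3:170870181-170870210, minus strand: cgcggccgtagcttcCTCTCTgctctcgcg
RPL22, chr1:6199581-6199610, minus strand: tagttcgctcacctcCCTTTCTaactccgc
RPL39, chrX:119791616-119791645, minus strand: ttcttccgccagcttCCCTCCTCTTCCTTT
RPL12, chr9:127451392-127451421, minus strand: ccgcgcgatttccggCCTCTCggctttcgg
RPL3, chr22:39319609-39319638, minus strand: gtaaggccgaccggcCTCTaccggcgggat
RPS19, chr19:41860240-41860269, plus strand: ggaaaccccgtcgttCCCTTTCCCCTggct
RPL34, chr4:108620561-108620590, plus strand: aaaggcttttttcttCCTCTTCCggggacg
RPL35, chr9:124861943-124861972, minus strand: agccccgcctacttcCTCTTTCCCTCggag
RPLP1, chr15:69452803-69452832, plus strand: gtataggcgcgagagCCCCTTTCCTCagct
RPS27, chr1:153990747-153990776, plus strand: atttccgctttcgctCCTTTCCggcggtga
RPS27L, chr15:63157463-63157492, minus strand: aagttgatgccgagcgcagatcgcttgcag
RPL7L1, chr6:42879601-42879630, plus strand: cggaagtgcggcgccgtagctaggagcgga
RPL26L1, chr5:172958714-172958743, plus strand: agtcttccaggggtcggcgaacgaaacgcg
RPL10L, chr14:46651767-46651796, minus strand: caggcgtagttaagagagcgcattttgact

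A start with C followed by C or T for a run of at least 5 bases was found in 34 of the 53 start windows of members other than paralogs (64.2%), against 4.07% of the 35116 windows of all genes. Of the 5 paralogs with a window, RPL22L1 had such a start, and RPS27L, RPL7L1, RPL26L1 and RPL10L had not; 51 members matched a window in all. The windows of 300 bases, 250 before and 50 from the start on, were searched on both strands for letters of known promoter motifs. CCGGAAG, a site of the ETS family, was in 39.6% of member windows and 10.3% of all windows. GGGCGG, the SP1 site, was in 50.9% and 45.0%, CACGTG, the E-box that MYC binds, in 5.66% and 7.26%, TATAAA, the TATA box, in 5.66% and 11.5%, and AAGATGGC, a YY1 site, in 7.55% and 2.89%. These matches describe the letters and are no evidence of binding.

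The member with the largest difference, RPL22L1, had a TATA box. Its 250 bases before the start are given with TATAAA in capitals (chr3:170870196-170870445, minus strand, GRCh38.p14), and the same stretch of RPL22, its parent, held none of the 5 motifs.
RPL22L1 upstream: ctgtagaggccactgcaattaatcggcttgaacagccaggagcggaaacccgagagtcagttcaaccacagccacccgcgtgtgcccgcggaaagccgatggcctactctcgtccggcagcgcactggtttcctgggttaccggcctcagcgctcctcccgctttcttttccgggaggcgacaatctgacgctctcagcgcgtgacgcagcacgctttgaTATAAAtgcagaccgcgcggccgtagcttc

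The ribosomal proteins other than the paralogs moved little between induced and uninduced cells, and every one that passed the test was lower in induced cells. Of 51 tested, 5 fell, RPL12, RPL3, RPS19, RPL34 and RPL35, and 46 did not pass the test. All members together counted 1 higher, 9 lower and 47 not called of 57 tested (limma, Benjamini-Hochberg over all 20552 probe sets), beside the 62.5% called, 34.6% higher and 27.9% lower, over all probe sets. The difference, induced minus uninduced, had a median of -0.07 over the 57 and of 0.03 over all tested probe sets. After centring each array on its median the medians were -0.15 over the members and -0.05 over all tested probe sets, and after centring on the members 0.0074 and 0.11. As reported, the difference was below 0 for 45 members and above 0 for 12, and 14 members had groups that did not overlap, beside 70.2% of all tested probe sets. A 2-fold difference was reached by 1 member, RPL22L1, beside 18.9% of all tested probe sets.

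Probe sets with strong signal differed less throughout the array, so the bright members are also given beside the bright probe sets. A mean level of 13 was set as the bound of bright signal after the data were seen, and 49 members other than paralogs lay above it, at 13.52 to 16.07. Over the 820 bright probe sets of the whole array, 45.7% were called, 23.4% higher and 22.3% lower, and 59.4% had groups that did not overlap. Of the 49 bright members, 0 were higher by limma, 5 were lower, and 8 had groups that did not overlap, each of them lower in induced cells. At an unadjusted p of 0.05 the 51 tested members gave 0 higher and 10 lower. The share of all probe sets, or of bright ones, at that looser threshold was not counted. These unadjusted counts are therefore not set apart from the rest of the array. The median absolute difference was 0.078 over the bright members, 0.18 over all bright probe sets and 0.40 over all tested probe sets.

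**Figure D1:**
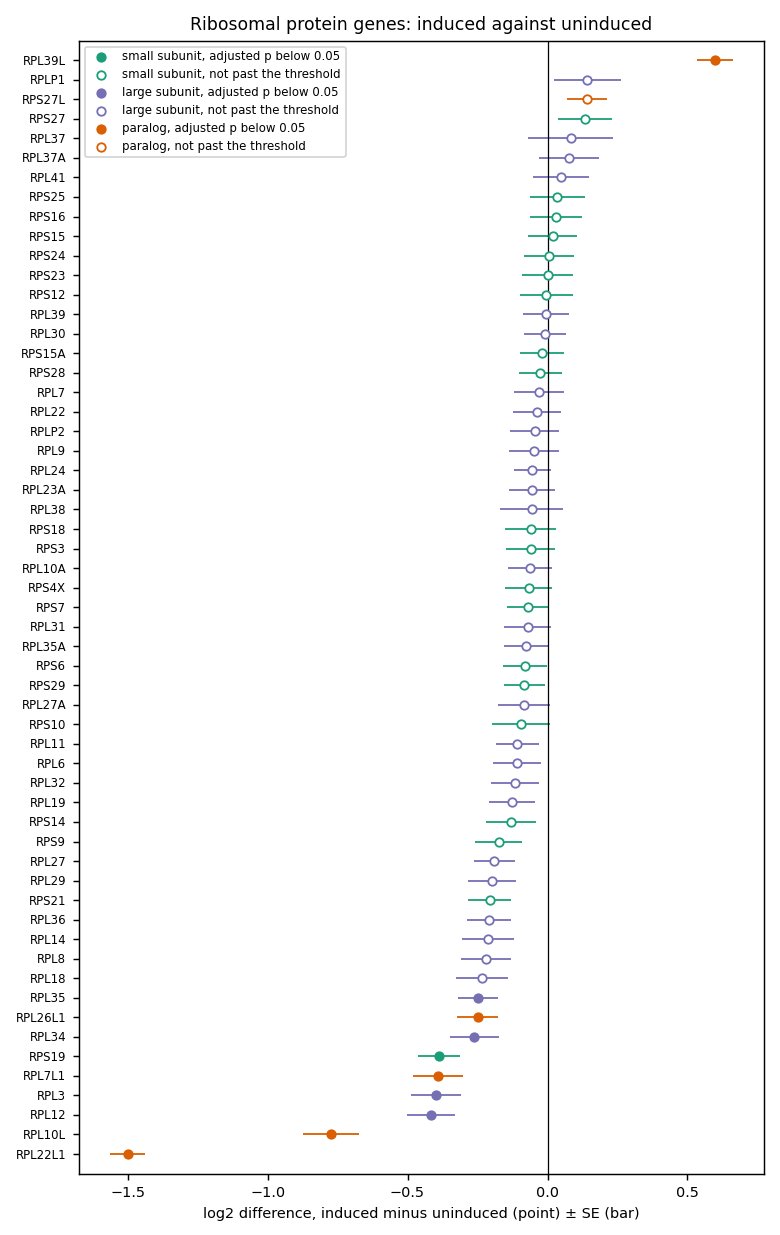
Difference in log2 GCRMA intensity, induced minus uninduced, of the 57 tested members, ordered by size. Points are differences, bars are ± 1 SE of the limma fit (3 arrays per group), filled points passed an adjusted p of 0.05 and open points did not. RPL22L1 lies at -1.50 and RPL39L at 0.60, while members other than paralogs lie between -0.42 and 0.14.

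In the large subunit, 4 of 31 tested members fell, 0 rose and the median difference was -0.08. Over all tested probe sets 27.9% were lower and 34.6% higher, and over all bright ones 22.3% were lower and 23.4% higher. RPL12, a protein at the base of the stalk, had levels of 14.30, 14.32 and 14.21 in induced cells, against 14.79, 14.76 and 14.53 in uninduced cells. All 3 induced arrays were below all 3 uninduced ones, and the signal fell by 25.0% (-0.42, SE 0.0866, adjusted p = 0.00479). The other RPL12 probe set, 200809_x_at, fell by the same -0.42 (adjusted p = 0.00453).

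RPL3 lies near the peptidyl transferase centre, where peptide bonds form. Its levels were 13.23, 13.47 and 13.25 in induced cells, against 13.78, 13.76 and 13.61 in uninduced cells. The groups did not overlap and the difference was -0.40 (SE 0.0908, adjusted p = 0.00718).

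RPL35 stands at the exit of the tunnel through which the new protein leaves, and RPL34 is a large subunit protein. RPL35 had 14.49, 14.50 and 14.44 in induced cells, against 14.79, 14.78 and 14.61 in uninduced cells (-0.25, adjusted p = 0.0194). RPL34 had 14.39, 14.46 and 14.40 in induced cells, against 14.80, 14.72 and 14.51 in uninduced cells (-0.26, adjusted p = 0.0344). Neither overlapped between groups, but both calls were lost under several of 16 settings, RPL34 passing in 9 and RPL35 in 12.

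In the small subunit the median difference was -0.06. Of 20 tested members, 1 fell and 0 rose, beside 22.3% lower and 23.4% higher over all bright probe sets. The member that fell was RPS19, needed to mature the small subunit RNA and the gene most often mutated in Diamond-Blackfan anaemia. Its levels were 14.16, 14.18 and 14.13 in induced cells, against 14.64, 14.58 and 14.41 in uninduced cells. The groups were apart, and the signal fell by 23.6% (-0.39, SE 0.0756, adjusted p = 0.00349). A second RPS19 probe set, 202649_x_at, fell by 0.40 on the log2 scale (adjusted p = 0.00421).

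Other small subunit proteins of known roles did not pass the test. RPS6, the substrate of S6 kinase, differed by -0.08 (adjusted p = 0.411), RPS14, whose loss underlies the anaemia of the 5q- syndrome, by -0.13 (adjusted p = 0.248), and RPS4X, an X-linked protein, by -0.07 (adjusted p = 0.516). RPS21 and RPL36 had groups that did not overlap but missed the threshold, at -0.21 each (adjusted p = 0.0510 and 0.0542). The median SE of a bright member was 0.0865, and a p that misses the threshold does not show that a level was the same.

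The stalk protein RPLP1 had 15.83, 15.98 and 15.82 in induced cells, against 15.87, 15.86 and 15.47 in uninduced cells. The groups overlapped and the difference of 0.14 did not pass (adjusted p = 0.334). RPLP2 had a dim probe set, 200908_s_at, at 7.39 ± 0.04 in induced and 7.44 ± 0.15 in uninduced cells (SD, n = 3 each; adjusted p = 0.679). RPL36A was at the filter, 4.04 ± 0.07 in induced and 3.96 ± 0.06 in uninduced cells, and was not tested.

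Members were also counted by role, beside the 45.7% called, 23.4% higher and 22.3% lower, over all bright probe sets. With so few genes per role, these counts are not set apart from those shares. Of 14 tested genes mutated in Diamond-Blackfan anaemia, 2 fell, RPS19 and RPL35, with a median of -0.08. Of 6 tested proteins lining or ringing the exit tunnel, RPL35 fell and the median was -0.06. Of 6 tested proteins of the 5S particle or known to bind MDM2, 0 passed by limma, with a median of -0.06. RPL11 of that group had 14.32, 14.43 and 14.35 in induced cells, against 14.56, 14.52 and 14.35 in uninduced cells (-0.11, adjusted p = 0.258).

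Of the 7 paralogs, 6 were tested, 1 rose, 4 fell and 1 was not called, and all 6 had groups that did not overlap, beside 62.5% called and 70.2% not overlapping over all tested probe sets. With so few genes, these counts are not set apart from those shares. The median difference was -0.32 for the paralogs and -0.07 for the other members; the gap between the 2 classes was not tested. Apart from RPS27L, the tested paralogs had levels below 13, and their part in that gap was not tested either.

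RPL22L1 is the paralog of RPL22, a large subunit protein that also binds RNA outside the ribosome, and in the mouse Rpl22 is known to repress Rpl22l1. RPL22L1 had 10.47, 10.49 and 10.55 in induced cells, against 12.07, 11.99 and 11.95 in uninduced cells. It was 2.83-fold lower in induced cells (-1.50, SE 0.0634, adjusted p = 3.33e-06) and passed under all 16 settings tried, with differences of -1.58 to -1.42.

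Its parent RPL22 gave different values by probe set. The brightest, 221775_x_at, had 14.60, 14.73 and 14.53 in induced cells, against 14.72, 14.73 and 14.52 in uninduced cells, with overlapping groups (-0.04, adjusted p = 0.735). The next brightest 2 differed by -0.05 and -0.01 and were not called. The remaining 2 fell, 214042_s_at by 0.36 on the log2 scale (adjusted p = 0.00154) and 221726_at to 11.07 ± 0.10 in induced cells, against 12.08 ± 0.05 in uninduced cells (SD, n = 3 each; -1.01, adjusted p = 2.82e-05). Which part of the RPL22 transcripts each probe set covers was not analysed.

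RPL39L is the paralog of RPL39, a small protein of the exit tunnel, and is known from the mouse for its part in male germ cells. It had 9.27, 9.28 and 9.20 in induced cells, against 8.69, 8.70 and 8.57 in uninduced cells. It was the one member that rose, 1.51-fold (0.60, SE 0.0653, adjusted p = 0.000206), and it passed under all 16 settings. RPL39 differed by -0.01 (adjusted p = 0.960).

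RPL10L is a retrogene copy of RPL10 and known in the mouse for male meiosis. It had 8.96, 8.83 and 8.96 in induced cells, against 9.68, 9.52 and 9.87 in uninduced cells, 1.71-fold lower (-0.77, SE 0.0995, adjusted p = 0.000464). Its sequence is near that of RPL10, whose mRNA is abundant, and signal from the parent cannot be told apart from its own on this probe set.

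RPL7L1, a paralog of RPL7 with a known part in making the large subunit, had 12.36, 12.62 and 12.39 in induced cells, against 12.88, 12.90 and 12.77 in uninduced cells (-0.39, adjusted p = 0.00687). RPL26L1, the paralog of RPL26, had 11.73, 11.82 and 11.64 in induced cells, against 12.01, 12.03 and 11.91 in uninduced cells (-0.25, adjusted p = 0.0216, passing in 11 of 16 settings). In both, the induced arrays were all below the uninduced ones. RPL3L, the heart and muscle paralog of RPL3, was at 2.26 in both groups, below the filter.

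RPS27L, a paralog of RPS27 and a known p53 target, had 13.86, 13.82 and 13.80 in induced cells, against 13.76, 13.73 and 13.57 in uninduced cells. The groups did not overlap, but the difference of 0.14 did not pass (adjusted p = 0.123). Its dimmer probe set 222487_s_at rose to 9.83 ± 0.04 in induced cells, against 9.56 ± 0.03 in uninduced cells (SD, n = 3 each; 0.27, adjusted p = 0.00517). RPS27 itself had 15.46, 15.61 and 15.45 in induced cells, against 15.48, 15.45 and 15.19 in uninduced cells (0.13, adjusted p = 0.264).

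A paralog was also set against its parent on the same array, as the change in the log2 ratio of their signals. The change was -1.46 for RPL22L1 over RPL22, 0.60 for RPL39L over RPL39 and -0.36 for RPL7L1 over RPL7, without overlap of the groups (exact two-sided permutation test, p = 0.1 each, the smallest that 3 against 3 arrays allow). For RPS27L over RPS27 the change was 0.0063 (exact permutation p = 0.9). These ratios use the brightest probe set of the parent. Over the 5 tested probe sets of RPL22, the change for RPL22L1 ran from -1.49 to -0.49, the smallest against 221726_at, and the groups did not overlap in any. For RPL7L1 it was -0.32 against a second RPL7 probe set and turned to 0.30, with overlapping groups, against 239493_at (exact permutation p = 0.4).

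**Figure D2:**
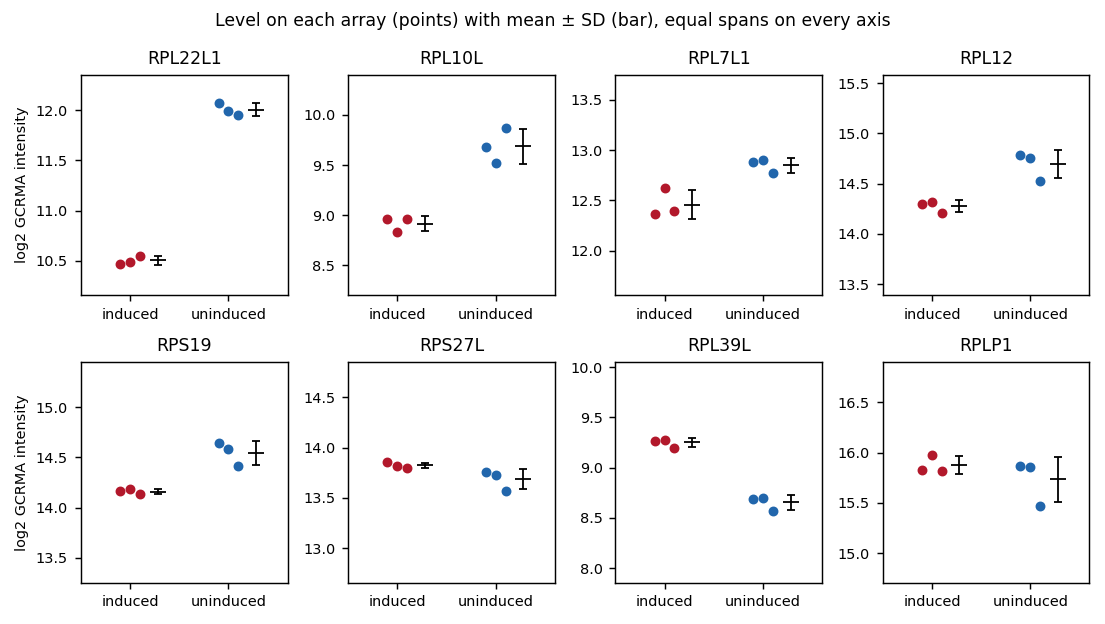
Log2 GCRMA intensity on each array (points) of 8 members, with the mean ± SD of 3 arrays (bar), induced left and uninduced right, all axes of equal span. The groups are 1.50 apart in RPL22L1 and overlap in RPLP1.

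Members moved together from array to array within a group. The median level of the 49 bright members was 14.82, 14.96 and 14.84 on the induced arrays, against 15.04, 15.03 and 14.83 on the uninduced arrays, so the groups overlapped through uninduced replicate 3. That array had the lowest value of the uninduced group for 49 of the 49, and induced replicate 2 the highest of the induced group for 46 of the 49. The median over all tested probe sets was also lowest on uninduced replicate 3, at 8.21, against 8.38 and 8.40 on the other uninduced arrays. On the induced arrays it was 8.42, 8.44 and 8.37, highest on induced replicate 2 as well. The share of all probe sets with that order was not counted. When each array was centred on these members, the median SD of a member was 0.029 in induced and 0.025 in uninduced cells; without centring it was 0.080 in induced and 0.12 in uninduced cells. With each array centred instead on all 57 tested members, paralogs included, RPL34, RPL35 and RPL26L1 no longer passed. Under that second centring RPLP1 (0.22, adjusted p = 0.0448) and RPS27 (0.21, adjusted p = 0.0263) were called higher. Without uninduced replicate 3, 17 members were called lower in place of 9.

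The summed intensity of the members made up 4.73%, 5.0% and 4.78% of that of all probe sets on the induced arrays, against 5.23%, 5.22% and 4.90% on the uninduced arrays. The groups overlapped, with means of 4.84% ± 0.14 in induced and 5.12% ± 0.19 in uninduced cells (SD, n = 3 each). Over all probe sets that name a ribosomal protein, those with several symbols included, the share was 9.69%, 10.3% and 9.77% on the induced arrays, against 11.03%, 10.96% and 10.4% on the uninduced arrays. Those groups did not overlap, with means of 9.92% ± 0.33 in induced and 10.8% ± 0.32 in uninduced cells (SD, n = 3 each). The brightest probe set of an array read 113650 to 122290 on induced and 54092 to 90256 on uninduced arrays. RNA quality, as the 3′ minus 5′ control signal, was 0.579 ± 0.034 in induced and 0.503 ± 0.025 in uninduced cells for GAPDH (exact permutation p = 0.1) and 1.41 ± 0.10 in induced and 1.25 ± 0.08 in uninduced cells for ACTB (p = 0.2, exact permutation test; SD, n = 3 each). The groups did not overlap for GAPDH but did for ACTB, and 0.1 is the smallest p that this test allows with 3 against 3 arrays. The part of these shifts in the members' values was not tested.

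Among the bright members, those with less signal had the more negative differences. Divided by level into 3 sets, the median difference was -0.20 for the 17 members at 13.52 to 14.68, -0.06 for the 16 at 14.72 to 15.16 and 0.0027 for the 16 at 15.16 to 16.07, and the 5 members that fell were all among the dimmest 17. Across the 49, the correlation of level and difference was r = 0.72 (Spearman 0.72), against r = 0.081 (Spearman 0.085) across 706 other bright probe sets, descriptions across genes that share the same 6 arrays. The 706 were not limited to 1 probe set per gene. The median absolute difference was 0.18 over all bright probe sets, against 0.078 over the bright members, and its part in the gap between the correlations was not tested. With each array left out in turn, a check added after the data were seen, r over the members ran from 0.64 to 0.77, the lowest without uninduced replicate 3. The 5 brightest members, RPL37, RPLP1, RPS25, RPL37A and RPL7, differed by -0.03 to 0.14 and were not called. RPL37, the brightest, had 16.06, 16.16 and 16.11 in induced cells, against 16.20, 16.22 and 15.66 in uninduced cells, with 1 uninduced array far below the other 2. RPL41, the shortest ribosomal protein, differed by 0.05 (adjusted p = 0.700).

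**Figure D3:**
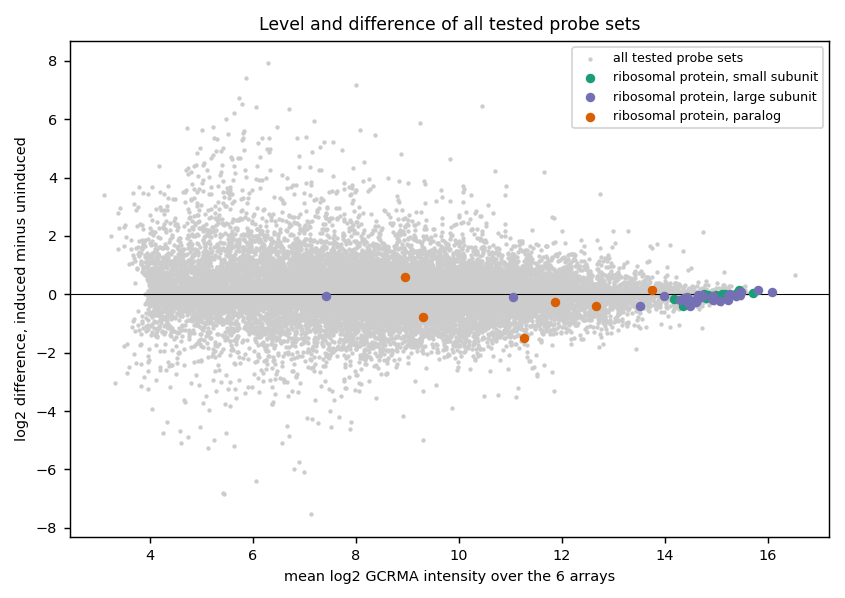
Mean log2 GCRMA intensity over the 6 arrays against the difference in log2 intensity, induced minus uninduced, for all 20552 tested probe sets (grey) and the tested members by class. Most members lie at the bright end, above a level of 13, within 0.42 of 0, and the paralogs other than RPS27L lie below it.

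The members' other probe sets spread over a wider range of differences where they were dim. The 59 genes had 120 probe sets with a single symbol. Of the 61 that did not represent their gene, 45 were tested. Their counts stand beside 34.6% higher and 27.9% lower over all tested probe sets, and 23.4% higher and 22.3% lower over bright ones. The 20 bright ones gave 0 higher by limma, 6 lower and a median of -0.15, with a range of -0.42 to -0.0066. The 25 at or below a level of 13 gave 3 higher, 11 lower and a median of -0.12, with a range of -1.07 to 0.71.

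Several genes whose brightest probe set was not called had another one that was. Bright ones fell for RPL14 (200074_s_at, -0.36, adjusted p = 0.00457) and RPL29 (200823_x_at, -0.39, adjusted p = 0.00590). That of RPL10A also fell (200036_s_at, -0.28, adjusted p = 0.0194), as did 214042_s_at of RPL22 given above. Of the 20 bright other probe sets, 14 were not called. Dim ones were called in further genes. RPL37A, a large subunit protein, fell in 213459_at to 6.10 ± 0.23 in induced cells, against 7.17 ± 0.28 in uninduced cells (SD, n = 3 each; -1.07, adjusted p = 0.00125), while its brightest differed by 0.08 (adjusted p = 0.564). RPS23, a protein of the decoding centre, fell in 227722_at by 0.95 on the log2 scale (adjusted p = 0.000713), while its brightest differed by 0.0003. RPL37 fell in 224767_at by 0.90 (adjusted p = 0.000191) and in 224766_at by 0.61 (adjusted p = 0.00310), while 224763_at differed by -0.06 (adjusted p = 0.560). RPL31 rose in 200962_at by 0.39 (adjusted p = 0.0472), while its brightest differed by -0.07 (adjusted p = 0.495). RPL35A, a Diamond-Blackfan gene, was the 1 member called in both directions, lower in 238026_at (-0.83, adjusted p = 8.79e-05) and higher in 215208_x_at (0.71, adjusted p = 0.00534). Which transcript forms these probe sets read was not analysed.

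Probe sets that list a ribosomal protein with other symbols numbered 65, of which 56 also name a small nucleolar RNA from an intron of the gene. Of 60 tested, 2 were higher, 26 lower and 32 not called, with a median of -0.17. Over all tested probe sets 34.6% were higher and 27.9% lower, and over all bright ones 23.4% were higher and 22.3% lower. The 44 bright ones gave 0 higher by limma, 14 lower and a median of -0.13, and the 16 dimmer ones 2 higher, 12 lower and a median of -0.64.

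**Figure D4:**
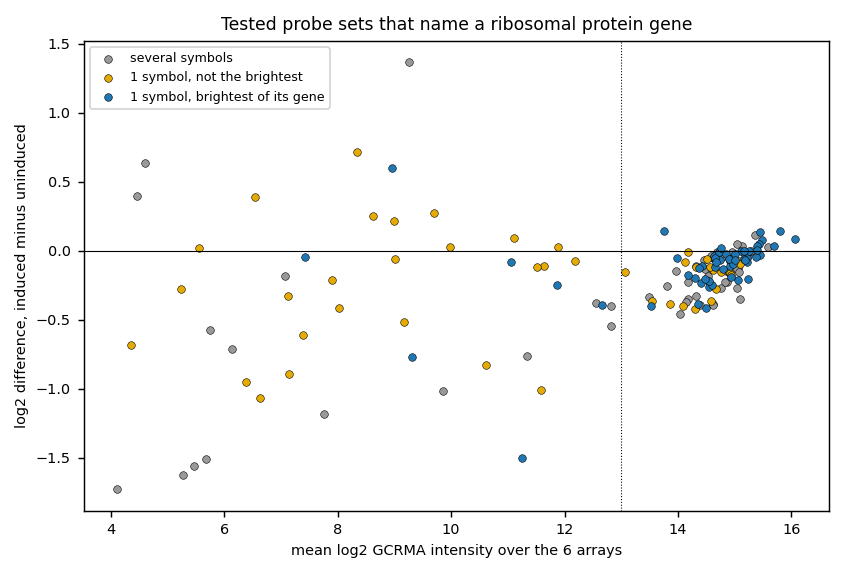
Mean log2 GCRMA intensity over the 6 arrays against the difference, induced minus uninduced, of every tested probe set that names a ribosomal protein: the brightest of its gene, others with 1 symbol, and those with several symbols. The dotted line marks a level of 13. To its right no probe set differs by 0.5 or more, and to its left differences run from -1.73 to 1.37.

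FAU, which encodes the ribosomal protein RPS30 fused to a ubiquitin-like part and so lies outside the naming rule, had 13.95, 14.14 and 13.99 in induced cells, against 14.33, 14.31 and 14.13 in uninduced cells. It fell by 0.23 on the log2 scale (adjusted p = 0.0485), near the threshold and with overlapping groups, and passed in 8 of 15 settings. RPL36AL, a copy of RPL36A, differed by -0.15 (adjusted p = 0.113).

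Genes that handle ribosomal proteins and assemble the subunits were next compared, from lists written by role. The chaperone list held dedicated chaperones, which hold new ribosomal proteins until assembly, and other partners of these proteins. Of its 9 tested genes, 7 fell and 0 rose, with a median of -0.92, beside 27.9% lower and 34.6% higher over all tested probe sets. PDCD2L, a relative of the RPS2 chaperone PDCD2, was 4.97-fold lower in induced cells (-2.31, adjusted p = 1.31e-05). BCCIP, the chaperone of RPL23, was 2.30-fold lower (-1.20, adjusted p = 1.67e-05) and LTV1, bound to RPS3 in the precursor subunit, 2.07-fold lower (-1.05, adjusted p = 2.62e-05). The exceptions were RPS19BP1 (-0.08, adjusted p = 0.331) and TSR2, the chaperone of RPS26 (0.05, adjusted p = 0.678). For LTV1, 1 of 2 tested probe sets was called.

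Of 13 tested factors of late subunit maturation, 11 fell and 0 rose, with a median of -0.87, beside the same shares. NOB1, the nuclease that cuts the last spacer from small subunit RNA, was at 9.13, 9.33 and 9.21 in induced cells, against 11.09, 11.02 and 10.94 in uninduced cells, 3.46-fold lower (-1.79, adjusted p = 3.37e-06). Its partner PNO1 was 2.72-fold lower (-1.44, adjusted p = 4.57e-06), TSR1 of the same precursor 3.44-fold lower in its brightest probe set (-1.78, adjusted p = 5.82e-06), and NMD3, the export adaptor of the large subunit, 1.89-fold lower (-0.92, adjusted p = 3.25e-05). Of the 4 TSR1 probe sets, 3 fell, and 218155_x_at rose by 0.37 on the log2 scale (adjusted p = 0.0128). RIOK3 and the exportin XPO1 did not pass in their brightest probe sets. Of their tested probe sets, 1 of 4 for RIOK3 and 1 of 2 for XPO1 were called higher.

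MYC was at 9.35 ± 0.04 in induced cells, against 12.86 ± 0.07 in uninduced cells (SD, n = 3 each), 11.4-fold lower (-3.51, adjusted p = 2.16e-07). It is printed beside the members as a known regulator of ribosome synthesis.

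Other mRNAs with a TOP start encode mostly translation factors. Of 17 tested, 2 rose, 7 fell and 8 were not called, with a median of -0.15, beside 34.6% higher and 27.9% lower over all tested probe sets. EIF4B, an initiation factor that helps unwind mRNA, fell by 0.61 on the log2 scale (adjusted p = 0.000450) and PABPC1, the poly(A) binding protein, by 0.57 (adjusted p = 0.000815). IPO5, an importer of ribosomal proteins into the nucleus, fell by 0.88 (adjusted p = 4.53e-05). EEF1A1, the elongation factor, differed by 0.14 (adjusted p = 0.214). VIM, the filament protein vimentin, stood apart, 87.6-fold higher in induced cells (6.45, adjusted p = 6.47e-08).

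Of 20 tested genes of the S6 kinase and mTOR pathway, 7 rose, 7 fell and 6 were not called, with a median of -0.01, near the 34.6% higher and 27.9% lower over all tested probe sets. EIF4EBP1, the repressor of cap-dependent translation, had 10.14, 10.17 and 10.11 in induced cells, against 12.74, 12.72 and 12.58 in uninduced cells, 5.82-fold lower (-2.54, adjusted p = 5.96e-07). MLST8, a subunit of both mTOR complexes, was 2.99-fold lower (-1.58, adjusted p = 3.28e-06). RPS6KA3, a kinase of the RSK family, was 2.23-fold higher (1.16, adjusted p = 7.40e-06), and PDPK1, which activates S6 kinases, 2.01-fold higher (1.00, adjusted p = 2.22e-05).

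Of 11 tested genes of quality control at stalled ribosomes, 3 rose, 3 fell and 5 were not called, with a median of 0.01, near the 34.6% higher and 27.9% lower over all tested probe sets. The ubiquitin ligase LTN1, which marks stalled chains, was 1.73-fold higher (0.79, adjusted p = 4.46e-05) and its partner NEMF rose by 0.29 on the log2 scale (adjusted p = 0.00377). These are their brightest probe sets, and 1 of 2 tested for LTN1 and 1 of 4 for NEMF were called. ZNF598, which senses collided ribosomes, fell by 1.00 on the log2 scale (adjusted p = 0.000117) and PELO, which splits stalled ribosomes, fell by 0.65 (adjusted p = 0.000771).

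**Figure D5:**
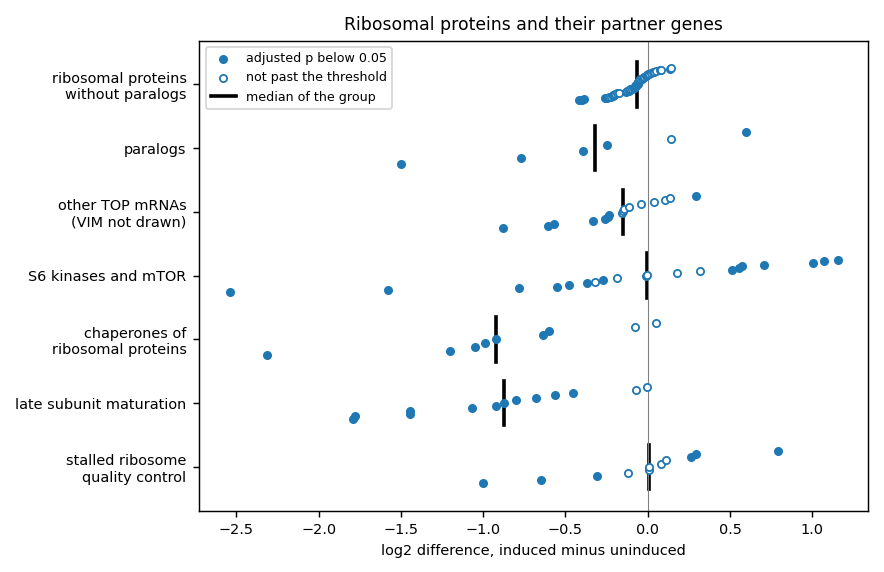
Difference in log2 GCRMA intensity, induced minus uninduced, of each tested gene (points) in the members and the partner groups, with the median of each group (bar); filled points passed an adjusted p of 0.05. VIM, at 6.45, is not drawn. Members other than paralogs gather within 0.42 of 0, and the chaperone list and the late maturation factors have medians of -0.92 and -0.87.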

How the data were processed

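RNA of 3 induced and 3 uninduced samples was measured, 1 array each. The authors deposited linear intensities, 1 per probe set. Their tool was GCRMA, as the submitters' processing notes name it, without a version and without word of later scaling. GCRMA corrects background from probe sequence and draws dim probe sets together, so dim differences are less certain. Precision is limited by having 3 arrays per group. Groups came from the sample titles.

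The log2 was taken after raising 6 values under 1 to 1. Of 54675 probe sets, 62 controls were left out; 41091 had 1 gene symbol, 1801 several and 11721 none in GEO's platform annotation. Entrez identifiers of 41037 matched the RefSeq gene table, with 0 symbols changed. The 20552 probe sets above a log2 of 4 (intensity 16) on at least 3 arrays entered a limma 3.58.1 fit under R 4.3.3 with group as its one term. Two-sided moderated p-values from eBayes were adjusted by Benjamini-Hochberg across the 20552, and 0.05 was the threshold. "Rose" and "fell" are used of genes past it. The script was tested on simulated data. Paralog ratios were compared with an exact permutation test (scipy 1.17.1, Python 3.11.15), and figures drawn with matplotlib 3.10.9. Member probe sets ended in _x_at for 15 and _s_at for 29 genes, endings of probes that can bind related transcripts.

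Members, lists, tests and alternatives were chosen with earlier results of these data known. Genes named are the called members with the largest changes, the 5 brightest and 5 dimmest, the paralogs with their parents, members with a set role, members called in both directions, and up to 4 genes per partner list with the smallest adjusted p; other named genes were chosen after their values were seen. Alternatives covered the filter, normalization, limma options, the choice of probe set and each array left out.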

Additional observations from a re-analysis of the deposited data

How the results depend on the processing

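Members called lower, 9 as reported, numbered 18 after quantile normalization, 26 after median centring, 16 with limma's trend and robust options, 22 with array weights and 20 with probe sets averaged per gene; members called higher, 1 as reported, numbered 3 after centring on the members and 2 with such averages. Without each array in turn, 6 to 17 were lower, the most without uninduced replicate 3 and the fewest without induced replicate 3, uninduced replicate 1 or uninduced replicate 2; 1 was higher, and the median difference ran from -0.13 to -0.04. Without _x_at and _s_at probe sets the median was -0.22 over 27 members. RPL37 turned to -0.37 with averaged probe sets (adjusted p = 0.00644), and RPL37A to -0.30 (adjusted p = 0.0123) and, without _x_at and _s_at probe sets, to -1.07 (adjusted p = 0.00147); these settings draw on dimmer probe sets. The causes of the other changes were not tested. Of all probe sets, 7112 were higher and 5733 lower, against 6759 higher and 8077 lower under quantile normalization and 6579 higher and 7106 lower under median centring. With trend and robust options 7195 were higher and 5789 lower, and with array weights 7145 higher and 6851 lower. After centring on the members 7931 were higher and 4954 lower, and without uninduced replicate 3, 6564 higher and 6312 lower. Leaving out each of the other arrays in turn gave 6455 to 6758 higher and 4914 to 5341 lower. With averaged probe sets, 3569 of 9836 genes were higher and 3178 lower. The labels do not state whether replicate numbers pair the arrays. Same-numbered deviations correlated at -0.17, 0.00046 and 0.18, within the -0.24 to 0.21 of differently numbered ones, which cannot decide it. With the replicate block, 10 members were lower and 1 higher, beside 5710 lower and 7099 higher of all 20552 probe sets. Dim signal and 3 arrays a group limit small differences.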
